A study of Mus musculus with 28 samples.

Results

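The 9 genes described here encode the enzymes that carry acetyl-CoA units through mevalonate to squalene and lanosterol: Hmgcs1, Mvk, Pmvk, Mvd, Idi1, Fdps, Fdft1, Sqle and Lss. They were chosen by pathway membership, with earlier results of these data known. They make up 9 of 35858 gene symbols in the first set of libraries and 9 of 24845 gene rows in the second, and each was detected and passed the filter on low values in every tissue measured. The results compare the level of each gene's RNA between mice expressing human APOBEC3B (A3B) and control mice, in liver, pancreas and lung.

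The mevalonate pathway makes the building blocks of cholesterol and of isoprenoids such as dolichol, ubiquinone and the lipid anchors of prenylated proteins. In liver, which makes much of the body's own cholesterol, its genes are known to be switched on together by the transcription factor SREBP2 when sterols are scarce. SREBP proteins are held in the endoplasmic reticulum by SCAP and the INSIG proteins while sterols are plentiful, and they act on promoters beside the factors NF-Y and Sp1.

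A3B is a human cytidine deaminase. In this model a human A3B cDNA fused to turboGFP was placed under a tetracycline operator at the ColA1 locus (TetO-A3B-tGFP) and switched on by the reverse transactivator rtTA3, which the ubiquitous CAGs promoter drives, with a diet holding 625 ppm doxycycline (dox). A3B animals thus carry both alleles in every tissue, and a change in one organ cannot be assigned to A3B in that organ alone. In the first set, called the kallisto set, 6 A3B and 2 control livers and 6 A3B and 2 control pancreases were labelled as 10 days on dox, and 7 mice gave both organs. In the second set, called the TPM table, 3 A3B livers (14 days for mice 23 and 28, 10 days for mouse 70) and 3 A3B lungs (10 days for mice 69, 70 and 74) stood against 3 control livers (mice 11, 91 and 92) and 3 control lungs (mice 87, 88 and 91), all labelled 15 days. Control livers of the kallisto set and controls 88, 91 and 92 were labelled with the A3B transgene and without the driver, and control lung 87 with the driver alone.

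Several labels disagree. Control liver 11 and control pancreases 45 and 168 were labelled as carrying both transgenes, and A3B pancreases 44 and 137 as carrying A3B alone, while the livers of mice 44, 137, 45 and 168 were labelled in keeping with their titles. Titles were used throughout. The study's own mouse list gives no dox for control livers 11, 91 and 92 or control lungs 88 and 91, and a legend describes the controls of the kallisto set as untreated, whereas the methods state that control littermates received dox as well. The sources thus differ, and dox feeding cannot be told apart from A3B in part of these comparisons. A3B mice were collected at a humane end point. The transgene itself could be read in the TPM table only, where it lay at 0.0928 to 0.144 TPM in control livers including liver 11, at 705 to 1705 TPM in A3B livers, at 0.435 to 0.526 TPM in control lungs and at 90.6 to 281 TPM in A3B lungs. TPM is a level that divides reads by gene length and by library size.

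Estimated counts per library ran from 65161064 to 98780481 in A3B livers, 104834346 to 118976013 in control livers, 74836907 to 87633469 in A3B pancreases and 87288183 to 95604352 in control pancreases. The depth behind the TPM table is unknown. Hepatocyte markers were present in all livers, acinar markers in all pancreases and alveolar markers in all lungs, so the organ labels held. The 8 hepatocyte markers summed to 34038 to 82206 TPM in A3B livers and 84016 to 138285 TPM in control livers of the kallisto set, and to 2516 to 5399 against 4789 to 6059 TPM in the TPM table. None of them passed the test (edgeR or limma, adjusted p under 0.05) in either set, and 3 of 8 had an unadjusted p under 0.05 in the kallisto set, as did 22.9% of all genes, and 1 of 7 tested in the TPM table, where 32.6% of all genes did. In bulk tissue, fewer cells of a type and less RNA per cell cannot be told apart.

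Promoter stretches are shown because several of these genes were lower together in liver and their regulation by SREBP, NF-Y and Sp1 is well known. RefSeq windows on GRCm38.p6, from 250 bases before to 50 bases after a start, were at hand for 6 of the 9 genes, with 7 windows in all. Fdps, Fdft1 and Sqle had none. Capitals mark the searched letters, read on the gene's strand from 5′ to 3′. The first line is the sterol regulatory element TCACNCCAC of Hmgcs1 at chr13:119690204-119690233, 128 bases before the start, and the others hold the NF-Y box, CCAAT or its reverse complement ATTGG.
Hmgcs1, sterol element: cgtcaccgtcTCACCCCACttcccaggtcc
Hmgcs1, NF-Y box: tccccgcctctcATTGGctgaaagcggatc
Mvk, NF-Y box: ttaatgtttgacCCAATctgtaaaggagcc
Pmvk, NF-Y box: aactcaggttggCCAATtcacagcatctag
Mvd, NF-Y box: ccggccagcgggCCAATcatatggcagcgc
Idi1, NF-Y box: tgcctccagctgATTGGcgagcccgggcat
Lss, NF-Y box: ggtgatgctctgATTGGccgagctcgcatc
These NF-Y stretches lie at chr13:119690294-119690323 for Hmgcs1, chr5:114444207-114444236 for Mvk, chr3:89454393-89454422 for Pmvk, chr8:122443432-122443461 on the minus strand for Mvd, chr13:8885549-8885578 for Idi1 and chr10:76531531-76531560 for Lss. The NF-Y letters were found, on either strand, in 6 of the 7 windows, at least one for each of the 6 genes, and in 37.4% of all 32851 windows. The sterol element was found in 1 of 7 windows and in 1.24% of all, the Sp1 box GGGCGG in 5 of 7 and in 35.7%, and the E-box CACGTG in 0 of 7 and in 7.15%. The Pmvk window belongs to the start of Pmvk-204, a transcript at 6.18 TPM in liver 48 and at most 0.240 TPM in the other livers of the kallisto set, and the transcript that carried nearly all Pmvk RNA in control livers, Pmvk-201, starts at position 89459118, outside it. A match describes letters and not a bound site.

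In liver, the enzymes were lower in A3B mice along almost the whole pathway. Of the 9 genes, 7 fell in the TPM table (limma, adjusted p under 0.05), where 1.86% of all genes tested were called lower. In the kallisto set 3 of 9 fell, Mvk, Pmvk and Fdps (edgeR, 2.41% of all genes called lower), and all 9 estimates were negative. The median log2 fold change was -2.45 in the TPM table, where the median gene stood at 0.39, and -2.27 in the kallisto set, where it stood at 0.21. Every A3B liver lay below every control for 8 of 9 genes in the TPM table, against 10.3% of all genes, and for 6 of 9 on the log2 CPM scale (counts scaled by library size with TMM, a factor that sets aside the most extreme genes) in the kallisto set, against 12.8%. The summed level of the 9 genes was 273, 171 and 477 TPM in A3B livers 23, 28 and 70 and 1244, 1290 and 1695 TPM in control livers 11, 91 and 92. In the kallisto set it was 98.3 TPM at the lowest, 129 at the median and 401 at the highest in A3B livers, and 835 and 444 TPM in control livers 45 and 168. The groups did not overlap in either sum. Of 11 marker lists, only the hepatocyte sum above was without overlap between the kallisto-set livers. The sums of 3 lists did not overlap in livers of the TPM table. Acinar markers stood at 9.39 to 9.86 TPM in A3B livers and 52.7 to 119.5 TPM in controls, adipocyte markers at 30.6 to 215 against 14.7 to 19.3 TPM, and alveolar markers at 5.75 to 45.0 against 0.699 to 2.01 TPM. Their part in the members' values was not tested.

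**Figure D1:**
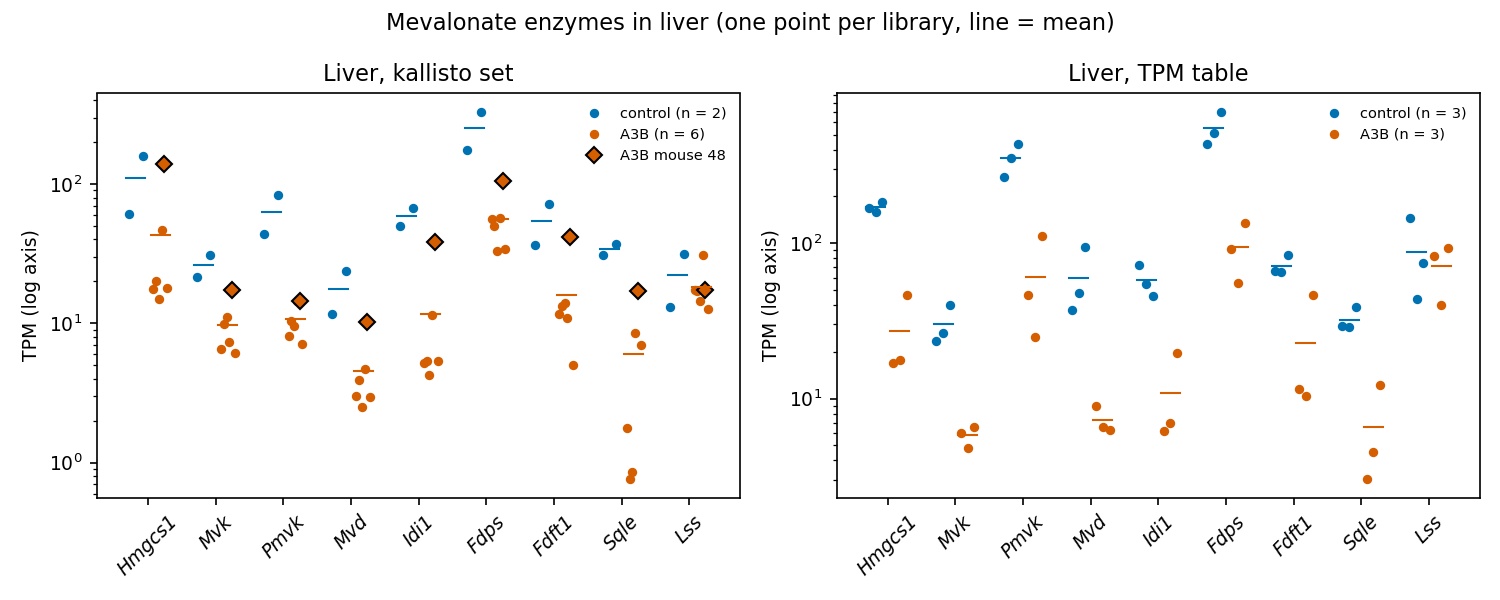
Level of each mevalonate enzyme in liver in TPM on a log axis, one point per library and a line at each group's mean, with the kallisto set and the TPM table in separate panels. For 8 of the 9 genes every A3B liver of the TPM table lies below every control, Lss being the exception, and in the kallisto set the liver of mouse 48, drawn as a diamond, lies above the other 5 A3B livers for 7 of 9 genes.

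The first enzyme, Hmgcs1 (chr13:119690379-119708260, plus strand), is the cytosolic synthase that makes HMG-CoA, the precursor of mevalonate. Gene coordinates here and below are those of GRCm38 (GENCODE M21). In the kallisto set it stood at 15.0 TPM at the lowest, 19.0 at the median and 140 at the highest in A3B livers, and at 160 and 60.5 TPM in control livers 45 and 168. One A3B liver, from mouse 48, thus lay between the controls, and the other 5 lay below both. The difference did not pass the test (log2 fold change -1.52 ± 0.92 SE, edgeR adjusted p = 0.351). The TPM table gave 17.0, 17.8 and 46.2 TPM in A3B livers 23, 28 and 70 and 168, 158 and 184 TPM in controls 11, 91 and 92. There the groups were well apart and Hmgcs1 fell (log2 fold change -2.76 ± 0.42 SE on the log2(TPM + 1) scale, limma adjusted p = 0.0223).

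Mvk, Pmvk and Mvd phosphorylate mevalonate in 2 steps and then decarboxylate it to isopentenyl diphosphate. Mvk (chr5:114444269-114460591, plus strand), mevalonate kinase, stood at 6.08, 8.61 and 17.2 TPM at the lowest, median and highest in A3B livers of the kallisto set, and at 31.1 and 21.3 TPM in controls 45 and 168. All 6 A3B livers lay below both controls, and Mvk fell 3.67-fold (log2 fold change -1.88 ± 0.37 SE, edgeR adjusted p = 0.0279), a call lost with limma on log2(TPM + 1) (-1.41, 0.0558). Mvk stood in the TPM table at 5.98, 4.82 and 6.58 TPM in A3B livers 23, 28 and 70 and at 23.5, 26.3 and 40.2 TPM in controls 11, 91 and 92. It fell in these livers too (log2 fold change -2.16 ± 0.32 SE, limma adjusted p = 0.0201).

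Pmvk (chr3:89454541-89469013, plus strand), phosphomevalonate kinase, was the member with the lowest adjusted p in the livers of the kallisto set. Its 6 A3B livers held 7.17 TPM at the lowest, 9.99 at the median and 14.6 at the highest, against 83.1 and 43.7 TPM in controls 45 and 168. No A3B liver came near the lower control, mouse 48 included (14.4 TPM), and the fall was 7.52-fold (log2 fold change -2.91 ± 0.32 SE, edgeR adjusted p = 0.00443). Pmvk levels in the TPM table were 46.6, 24.8 and 111 TPM in A3B livers 23, 28 and 70 and 267, 352 and 435 TPM in controls 11, 91 and 92, a fall of 2.74 ± 0.54 SE on the log2 scale (limma adjusted p = 0.0354). Levels of 1 gene in the 2 sets are not on a common scale, because the sets were quantified by different methods.

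Mvd (chr8:122433601-122443422, minus strand), mevalonate diphosphate decarboxylase, was the lowest member in control livers of the kallisto set. It stood at 2.49, 3.46 and 10.3 TPM at the lowest, median and highest in A3B livers and at 23.7 and 11.6 TPM in controls 45 and 168. The groups did not overlap, and the difference missed the threshold (log2 fold change -2.19 ± 0.58 SE, edgeR adjusted p = 0.0654). Livers of the TPM table held Mvd at 8.99, 6.51 and 6.24 TPM in A3B livers 23, 28 and 70 and at 36.9, 47.7 and 94.4 TPM in controls 11, 91 and 92. It had the lowest adjusted p of the members in that comparison (log2 fold change -2.78 ± 0.40 SE, limma adjusted p = 0.0199).

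Idi1 and Fdps act next, on the way to the longer isoprenoids. Idi1 (chr13:8885501-8892451, plus strand), the isomerase that yields dimethylallyl diphosphate, stood at 4.28, 5.40 and 38.4 TPM at the lowest, median and highest in A3B livers of the kallisto set and at 67.2 and 50.1 TPM in controls 45 and 168. The highest A3B value, again mouse 48, stayed below both controls, and the difference was short of the threshold (log2 fold change -2.51 ± 0.84 SE, edgeR adjusted p = 0.122). Idi1 levels in the TPM table were 6.14, 6.94 and 19.6 TPM in A3B livers and 72.4, 54.3 and 46.0 TPM in controls, and it fell (log2 fold change -2.45 ± 0.46 SE, limma adjusted p = 0.0327).

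Fdps (chr3:89093588-89101959, minus strand), farnesyl diphosphate synthase, sits at the branch point between sterols and the other isoprenoids and was the most abundant member in control livers of both sets, clear of the next gene in every control library. It stood at 33.1, 53.0 and 105 TPM at the lowest, median and highest in A3B livers of the kallisto set, and at 330 and 177 TPM in controls 45 and 168. Every A3B liver was below both controls, and Fdps fell 5.48-fold (edgeR adjusted p = 0.0279). Its levels in the TPM table were 91.5, 55.5 and 136 TPM in A3B livers 23, 28 and 70 and 437, 515 and 699 TPM in controls 11, 91 and 92. It fell by 2.60 ± 0.40 SE on the log2 scale (limma adjusted p = 0.0223).

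Fdft1, Sqle and Lss commit farnesyl diphosphate to sterols. Fdft1 (chr14:63145150-63179578, minus strand), squalene synthase, stood at 5.01, 12.5 and 41.7 TPM at the lowest, median and highest in A3B livers of the kallisto set and at 72.2 and 36.5 TPM in controls 45 and 168. Mouse 48 lay between the controls, and the difference did not pass (log2 fold change -2.27 ± 1.08 SE, edgeR adjusted p = 0.25). Livers of the TPM table held 11.4, 10.4 and 46.3 TPM in A3B livers 23, 28 and 70 and 66.2, 65.0 and 83.3 TPM in controls. These groups did not overlap, and the threshold was missed (log2 fold change -1.93 ± 0.56 SE, limma adjusted p = 0.0681).

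Sqle (chr15:59315077-59331192, plus strand), squalene epoxidase, a known control point of sterol synthesis, had the widest relative range among A3B livers of the kallisto set. It stood at 8.58, 0.762, 6.94, 1.77, 17.1 and 0.860 TPM in A3B livers 44, 137, 49, 125, 48 and 153 and at 37.3 and 30.9 TPM in controls 45 and 168. All 6 lay below both controls, 3 of them under 2 TPM, and the difference did not pass the test (log2 fold change -2.77 ± 1.01 SE, edgeR adjusted p = 0.148). The TPM table gave 3.03, 4.54 and 12.2 TPM in A3B livers and 29.4, 28.6 and 38.6 TPM in controls, and it fell (log2 fold change -2.31 ± 0.46 SE, limma adjusted p = 0.0371).

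Lss (chr10:76531588-76557138, plus strand), lanosterol synthase, closes the first sterol rings and was the member with no call in the livers of either set and overlapping groups in both. It stood at 12.6, 17.2 and 31.1 TPM at the lowest, median and highest in A3B livers of the kallisto set and at 31.4 and 13.1 TPM in controls 45 and 168, with the A3B livers inside or close to the control range. Lss levels in the TPM table were 82.1, 40.1 and 92.6 TPM in A3B livers 23, 28 and 70 and 145, 43.9 and 74.8 TPM in controls 11, 91 and 92. The log2 fold change was -0.74 ± 0.41 SE (edgeR adjusted p = 0.303) and -0.21 ± 0.52 SE (limma adjusted p = 0.796), each smaller than 2 standard errors.

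The strength of these calls rested on single libraries. Of the 9 genes in the TPM table, 0 passed limma without control 91, without control 92 or without A3B liver 23, although 8 of 9 had an unadjusted p under 0.05 with all libraries, as 32.6% of all genes did, and without any filter on low values 0 of 9 passed with adjusted p of 0.0611 or more. The median log2 fold change ran from -2.80 to -2.19 over all libraries left out in turn. In the kallisto set only Pmvk passed edgeR without A3B liver 44 or 137 or without control 45 or 168, and the median ran from -2.94 to -1.96.

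Liver 48 stood apart from the other 5 A3B livers. The mean log2 CPM of the 9 genes was 5.73 in liver 48, 3.30 to 3.96 in the other A3B livers, and 6.77 and 6.15 in controls 45 and 168. Its level in TPM was above every other A3B liver for 7 of 9 genes and below every other for 0, beside 12.1% and 45.0% of the 12312 genes that averaged 1 TPM or more in these livers. It was within the control range for 3 (Hmgcs1, Fdft1 and Lss) and below both controls for 6. Against the median of the other 5, Sqle was 9.70 times higher, Hmgcs1 7.79 times and Idi1 7.12 times, while Pmvk was 1.51 times and Lss 1.02 times that median. Macrophage, endothelial and fibroblast markers were lower in the same library than in any other liver. Its macrophage markers summed to 34.8 TPM, against 319 to 1219 TPM in the other A3B livers and 374 to 417 TPM in controls. Its endothelial markers summed to 5.35 TPM, against 31.7 to 54.3 and 31.6 to 49.2 TPM, and its fibroblast markers to 18.9 TPM, against 98.7 to 200.9 and 62.9 to 120.4 TPM. T cell markers, at 7.21 TPM, lay above the 3.22 to 6.14 TPM of the other A3B livers. Their part in the members' values was not tested. Without liver 48, 8 of 9 genes fell (edgeR), all but Lss, where 4.36% of all genes were called lower, with a median log2 fold change of -2.94. The changes were then -2.77 for Hmgcs1 (adjusted p = 0.0102), -3.75 for Idi1 (0.00124), -3.95 for Fdft1 (0.00290), -2.85 for Mvd (0.00367) and -3.79 for Sqle (0.0305).

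Related gene lists in liver 48 gave the following counts, and differences between lists were not tested. Of 10 sterol enzymes after lanosterol, 4 lay above every other A3B liver there: Cyp51 at 20.7 TPM, Msmo1 at 120 TPM, Nsdhl at 16.7 TPM and Ebp at 111 TPM, while 2 lay below every other. Of 8 genes of acetyl-CoA supply and fatty acid synthesis, 0 did, 2 lay below every other A3B liver, and all 8 lay below both controls. Of 7 genes of the SREBP machinery, 1 did, Insig1, the sterol-sensing retention factor, at 56.0 TPM, and the other 6 lay below every other A3B liver. Of 10 genes of the isoprenoid branches 1 lay above and 5 below every other, and of 11 fasting and ketogenesis genes 1 above and 2 below. No pancreas library of mouse 48 was analysed here, and its label gives the same genotype and dox days as the other A3B livers.

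**Figure D2:**
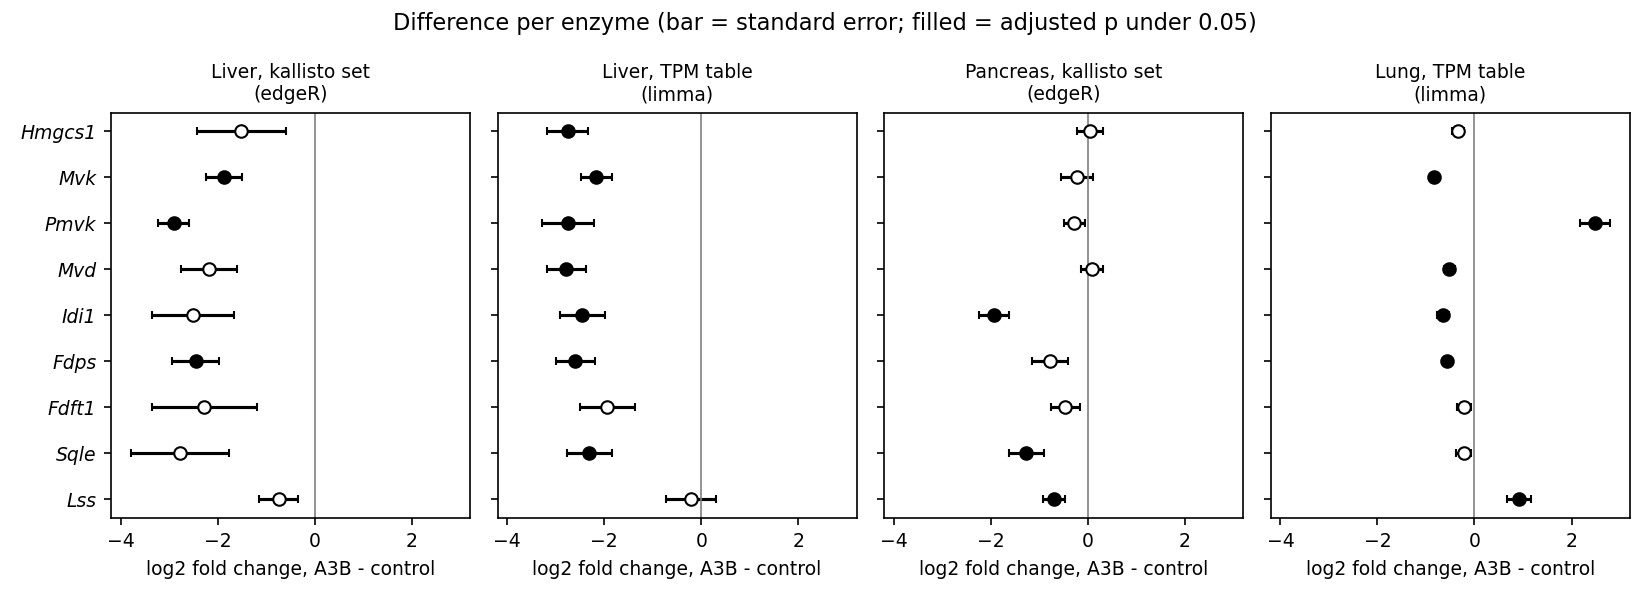
Log2 fold change of each mevalonate enzyme, A3B against control, with its standard error, in each tissue and set, filled where the adjusted p is under 0.05 (edgeR for the kallisto set, limma on log2(TPM + 1) for the TPM table). The liver estimates lie far below 0 for 8 genes in both sets. The lung estimates lie between -0.83 and 0.92 but for Pmvk at 2.48. The pancreas estimates are those of TMM scaling, and scaling by library totals or limma on log2(TPM + 1) moves them upward.

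Transcripts within a gene did not all move alike in liver. Fdft1 has 4 transcripts in the annotation used. Its protein-coding transcripts summed to 1.02 TPM at the lowest, 2.44 at the median and 40.5 at the highest in A3B livers, the highest being liver 48, and to 58.8 and 29.8 TPM in controls 45 and 168. They held 81.5% and 81.6% of the gene's level in the controls. Among A3B livers this share was 10.5% at the lowest, 21.4% at the median and 97.0% at the highest. The retained-intron transcripts held the rest together with a decay-targeted form, and lay at 0 to 9.56 TPM in A3B livers and 3.35 to 8.98 TPM in controls. In 5 of 6 A3B livers, all but liver 48, coding RNA was thus a smaller share of Fdft1 than in either control. The TPM table holds gene totals only. Ctsb, the neighbouring gene on the other strand, overlaps Fdft1.

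Lss RNA also held a smaller coding share in A3B livers, though not by much in liver 137. Its protein-coding transcripts summed to 3.87 TPM in liver 48, the lowest of the A3B livers, and to 18.3 TPM in the highest, liver 44, against 21.9 and 8.36 TPM in controls. Coding transcripts held 54.9% to 63.3% of Lss in the other 5 A3B livers and 22.3% in liver 48, against 69.7% and 63.8% in controls 45 and 168. Retained-intron transcripts held 26.6% to 37.7% in those 5, 77.7% in liver 48 and 25.6% and 32.3% in the controls. The gene total of Lss in liver 48 was thus mostly retained-intron RNA.

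For Pmvk and Fdps, the main coding form was lower in every A3B liver, like the gene total. Pmvk-201 (chr3:89459118-89469013) ran from 6.15 to 13.0 TPM in A3B livers and stood at 82.1 and 43.2 TPM in controls 45 and 168. In liver 48 Pmvk-201 stood at 6.84 TPM and Pmvk-204, at 6.18 TPM, held much of the rest. Of the Fdps forms, Fdps-201 ran from 31.0 to 99.9 TPM in A3B livers against 263 and 128 TPM in controls, and Fdps-203 from 1.20 to 7.05 TPM against 57.7 and 42.9 TPM. Liver 48 held the highest Fdps-201 of the A3B group and 3.13 TPM of Fdps-203, within the range of the other A3B livers. These values come from assigning short reads to overlapping transcripts and carry no test.

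**Figure D3:**
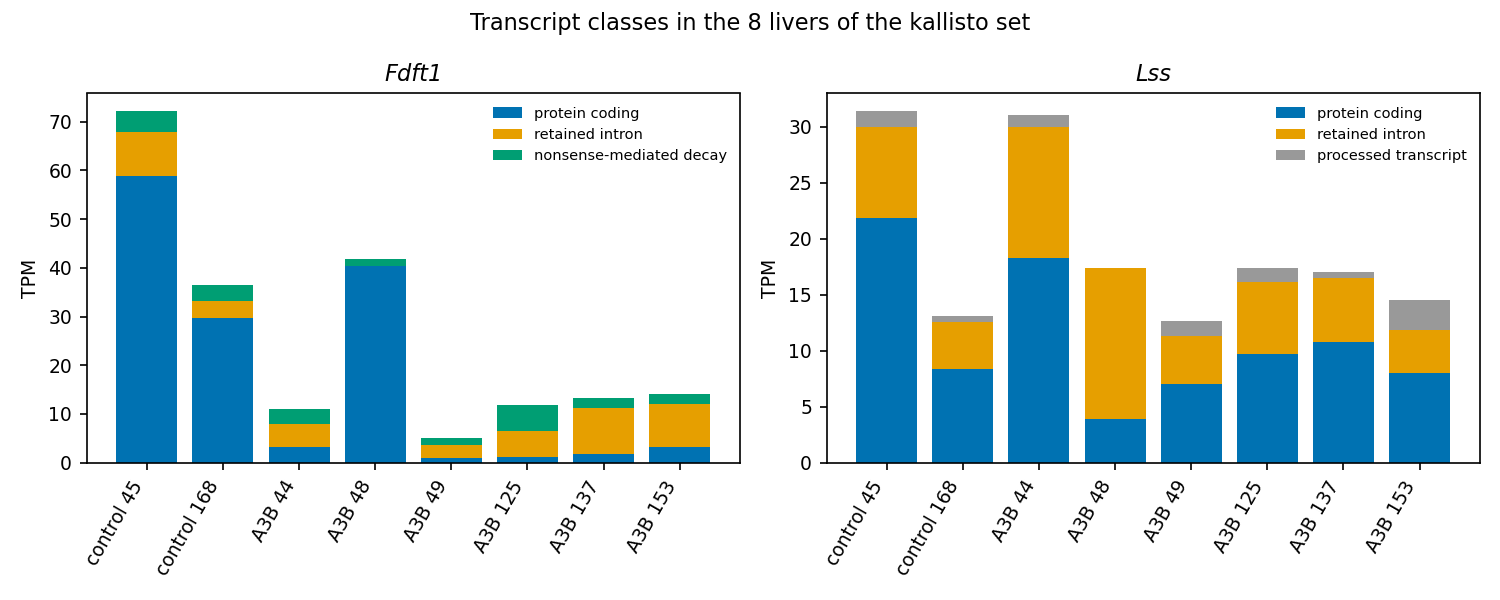
Stacked bars of the level in TPM of Fdft1 and Lss by transcript class in each of the 8 livers of the kallisto set, controls first. Protein-coding Fdft1 lies at 58.8 and 29.8 TPM in the controls and at 40.5 TPM in liver 48 and far lower in the other 5 A3B livers, while retained-intron transcripts make up most of Lss in liver 48.

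Some genes beyond lanosterol and some of the regulators fell in liver as well. The counts below stand beside 2.41% of all genes called lower and 1.26% called higher in the kallisto set (edgeR), and 1.86% and 6.07% in the TPM table (limma). Of 10 sterol enzymes after lanosterol, 4 fell and 0 rose in the kallisto set with a median log2 fold change of -1.65, and 5 fell and 0 rose in the TPM table with a median of -2.09. Sc5d, a desaturase of the last steps, fell in both (-2.30, edgeR adjusted p = 0.0171, and -2.54, limma adjusted p = 0.0180), as did Nsdhl, a C4-demethylation enzyme (-3.19 and -2.21). Of 7 genes of the SREBP machinery, 3 fell in the kallisto set: Srebf1 (-3.65, edgeR adjusted p = 0.00388), Srebf2 (-1.53, 0.0100), which encodes SREBP2, and Insig1 (-2.14, 0.0216). Srebf1 (-2.20) and Insig1 (-2.36) fell in the TPM table.

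Some genes of fatty acid synthesis fell as well. Of 8 genes of acetyl-CoA supply and fatty acid synthesis, 5 fell in the kallisto set (median -1.87) and 3 in the TPM table (median -1.58), among them Fasn, fatty acid synthase, in both (-3.34 and -2.48). Of 10 genes of the isoprenoid branches, 0 passed edgeR in the kallisto set (median -0.49, with 6 at an unadjusted p under 0.05, beside 22.9% of all genes), and 2 of 8 tested rose in the TPM table: Ggps1 (1.73, limma adjusted p = 0.0342), which makes geranylgeranyl diphosphate from the product of Fdps, and Nus1 (1.5, 0.0402), a subunit of the dolichol-making prenyltransferase. Of 11 fasting and ketogenesis genes, 2 rose in the kallisto set, and 2 rose and 1 fell in the TPM table, with Pdk4, a fasting-induced kinase that restrains pyruvate oxidation, called in both (5.47 and 4.67). Of the same 11 genes, 5 rose and 2 fell in pancreas by edgeR, beside 17% and 14.9% of all genes. In lung 3 rose and 0 fell by limma, beside 16.1% and 20.8%. Pdk4 averaged 46.8 TPM in A3B lungs and 4.15 TPM in control lungs. The nutritional state of the animals was not measured here, and its part in the result was not tested.

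Across the 8 livers of the kallisto set, the genes whose log2 CPM tracked the members' mean most closely, among 8894 genes averaging 5 TPM or more, were Echdc1 (Pearson r = 0.98), Nsdhl (0.98), Cyp51 (0.98), Wdcp (0.97) and Sc5d (0.97). These are descriptions over 8 points that share the A3B and control split, and 3 of the 5 are sterol enzymes after lanosterol. Among the 6 A3B livers alone their r ran from 0.93 to 0.96.

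In pancreas, the direction of these genes depended on how libraries were scaled. On the TPM scale the 9 genes summed to 59.96, 77.4 and 92.6 TPM at the lowest, median and highest in A3B pancreases and to 18.8 and 26.2 TPM in controls 45 and 168, so A3B pancreases were higher. The 10 most abundant genes held 59.5% to 62.2% of counts in control pancreases and 12% to 20.4% in A3B pancreases, and the 8 acinar markers summed to 217099 to 238175 TPM in controls and 42332 to 131631 TPM in A3B pancreases. With the TMM scaling of edgeR, which sets aside such dominant genes, 3 of 9 fell and 0 rose, where 14.9% of all genes were called lower, and 4 of 9 did not overlap (18.9% of all genes). With scaling by library totals, 8 of 9 were called higher, as were 70.5% of all genes, with a median of 1.90 beside a median gene of 2.29. With limma on log2(TPM + 1), 8 of 9 were called higher, as were 83.9% of all genes, with a median of 1.48 beside 1.75. With TMM the members' median was -0.46 beside a median gene of 0.09.

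Idi1 had the lowest edgeR estimate in pancreas. It stood at 1.26, 2.44 and 3.25 TPM at the lowest, median and highest in A3B pancreases and at 1.14 and 2.95 TPM in controls, overlapping on that scale. On the TMM-scaled log2 CPM it ran from 1.15 to 2.38 in A3B pancreases and stood at 3.93 and 4.05 in controls 45 and 168, without overlap. It fell 3.83-fold by edgeR (log2 fold change -1.94 ± 0.31 SE, adjusted p = 0.00131), and stood at 0.23 and 0.17 with scaling by totals and with limma.

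Sqle and Lss fell by edgeR as well. Sqle stood at 1.98, 3.50 and 4.35 TPM at the lowest, median and highest in A3B pancreases and at 1.44 and 1.59 TPM in controls, and its edgeR log2 fold change was -1.27 ± 0.35 SE (adjusted p = 0.0197) and 1.10 with scaling by totals. Lss stood at 2.22, 3.19 and 5.21 TPM against 0.492 and 1.25 TPM, with -0.70 ± 0.23 SE (adjusted p = 0.0423) by edgeR and 1.51 with scaling by totals, and its call was lost without a filter on low values (0.0869) and with Y-linked expression, which marked mice of both sexes in each group, as a covariate (0.0576). For both, the sign turned with the scaling. With TMM scaling kept, the sign of Lss also turned with protein-coding transcripts only (0.36, edgeR adjusted p = 0.540). It turned as well with the most abundant transcript alone (0.95, 0.257), where Sqle kept its sign and lost its call (-0.77, 0.254).

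The other 6 did not pass in pancreas with TMM scaling. Hmgcs1 stood at 6.86, 11.2 and 12.3 TPM at the lowest, median and highest in A3B pancreases against 1.44 and 3.04 TPM in controls, and its edgeR log2 fold change was 0.04 (adjusted p = 0.915). Fdps stood at 12.2, 20.8 and 23.8 TPM against 5.16 and 7.25 TPM, with -0.78 (adjusted p = 0.139). The remaining 4 lay between -0.46 for Fdft1 and 0.09 for Mvd on the edgeR scale. On the TPM scale all 4 were higher in every A3B pancreas, with Pmvk at 9.94 to 16.9 TPM against 1.83 and 4.78 TPM, Mvk at 4.40 to 7.496 against 1.30 and 1.98, Mvd at 5.995 to 8.78 against 1.001 and 1.92, and Fdft1 at 10.3 to 15.7 against 2.92 and 3.53.

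The pancreas calls also rested on the controls and on their labels. Without control 45 only Idi1 passed (edgeR) and the median turned to 0.09, and without control 168 there were 4 calls. When pancreases were grouped by labelled genotype in place of title, 0 of 9 passed edgeR, with estimates from -0.47 to 0.71. Beside the acinar markers, of which 7 of 8 fell, 4 of 7 macrophage markers and 4 of 5 fibroblast markers rose in A3B pancreases, their sums being 1554 to 4682 against 44.9 and 531 TPM and 940 to 1441 against 37.9 and 168 TPM. Ductal markers (2 of 4 rose) summed to 234 to 604 against 7.18 and 32.9 TPM, endothelial markers (1 of 4) to 52.9 to 84.8 against 7.08 and 16.2 TPM, and hepatocyte markers (1 of 8) to 189 to 1101 against 72.1 and 32.9 TPM. Alveolar and airway markers (0 called) summed to 5.32 to 55.3 against 1.94 and 2.14 TPM and to 3.11 to 52.9 against 2.74 and 0.447 TPM. B cell, T cell and adipocyte markers gave 0 calls, with median log2 fold changes of -2.43, -1.26 and -2.545. By edgeR, 17% of all genes were called higher and 14.9% lower. The sums are on the TPM scale, where limma called 83.9% of all genes higher. The part of these marker differences in the members' values was not tested.

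Insig1 and the last sterol steps gave a mixed picture in pancreas by edgeR. Insig1 fell (-1.53, adjusted p = 0.00175) as 1 of 7 SREBP machinery genes. Of 10 enzymes after lanosterol, Tm7sf2, a sterol reductase (-1.83, 0.00701), and Cyp51, lanosterol demethylase (-0.94, 0.0165), fell and Hsd17b7, a ketoreductase, rose (1.43, 0.0119). Of the isoprenoid branches 2 of 10 fell, and of fatty acid synthesis 1 of 8 rose and 0 fell. Of all genes, 14.9% were called lower and 17% higher in this fit. These directions are those of TMM scaling. On the TPM scale Cyp51 averaged 2.57 TPM in A3B pancreases and 1.07 TPM in controls, and Tm7sf2 3.15 and 2.39 TPM. Both thus lay higher on average there, against their edgeR direction. Hsd17b7 was higher on both scales, at 2.39 against 0.238 TPM.

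In lung, Pmvk went the other way from liver. It stood at 1126, 801 and 641 TPM in A3B lungs 69, 70 and 74 and at 211, 105 and 148 TPM in control lungs 87, 88 and 91. The lowest A3B lung was well above the highest control, and Pmvk rose 5.58-fold (log2 fold change 2.48 ± 0.30 SE, limma adjusted p = 0.00413). Pmvk made up 77.9% to 83.4% of the members' summed level in A3B lungs and 28.8% to 45.9% in controls, so the sum, at 1350, 995 and 823 TPM against 459, 364 and 382 TPM, followed this gene. It passed without each of the 6 lungs in turn, with log2 fold changes from 2.23 to 2.73.

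Other values in the same lungs stand beside this rise. Pbxip1, the neighbouring gene within 5 kb, was on average 388 TPM in control lungs and 489 TPM in A3B lungs (log2 fold change 0.34, limma adjusted p = 0.0421). The 8 hepatocyte markers summed to 4.34, 465 and 44.1 TPM in control lungs 87, 88 and 91 and to 16.5, 392 and 412 TPM in A3B lungs 69, 70 and 74. The part of hepatocyte RNA in the Pmvk values was not tested. The gene totals of the table give no transcripts, so which form of Pmvk was counted in lung was not examined.

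Lss also rose in lung. It stood at 57.3, 39.9 and 30.8 TPM in A3B lungs 69, 70 and 74 and at 25.6, 21.9 and 17.5 TPM in controls 87, 88 and 91, with a log2 fold change of 0.92 ± 0.24 SE (limma adjusted p = 0.0269). The groups were close, and the call was lost without control 88 or 91 or without A3B lung 69 or 70 (adjusted p from 0.0545 to 0.0869), and without a filter on low values (0.0511).

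Mvk, Mvd, Idi1 and Fdps fell in lung by smaller steps. Of the 9 genes, 4 fell and 2 rose, beside 20.8% and 16.1% of all genes called in each direction, and 5 of 9 lay below and 2 of 9 above every control library, beside 30.6% and 23.3% of all genes. Mvk stood at 7.26, 7.95 and 6.80 TPM in A3B lungs and at 13.6, 14.1 and 13.6 TPM in controls, a fall of 0.83 ± 0.09 SE on the log2 scale (limma adjusted p = 0.00313). Fdps stood at 78.2, 75.0 and 73.7 TPM against 114, 115 and 109 TPM, a fall of 0.57 ± 0.08 SE (adjusted p = 0.00495). Both groups were tight and clear of each other. Macrophage markers summed to 1025 to 1156 TPM in A3B lungs and 1302 to 1387 TPM in controls, and airway markers to 8136 to 8500 against 9260 to 9768 TPM, also without overlap, and their part in these falls was not tested. Idi1 fell by 0.65 ± 0.12 SE, from 18.3, 20.7 and 20.1 TPM in controls to 12.9, 10.5 and 13.3 TPM (adjusted p = 0.00869), and Mvd by 0.52 ± 0.11 SE, from 17.6, 16.3 and 18.0 to 13.4, 10.6 and 11.6 TPM (adjusted p = 0.0137).

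Hmgcs1, Fdft1 and Sqle did not pass in lung. Hmgcs1 stood at 29.7, 25.5 and 25.7 TPM in A3B lungs and at 32.7, 39.6 and 31.3 TPM in controls, without overlap and short of the threshold (log2 fold change -0.34 ± 0.12 SE, limma adjusted p = 0.0665). Fdft1 and Sqle overlapped between the groups, with log2 fold changes of -0.22 ± 0.14 SE and -0.23 ± 0.15 SE. Of the 10 enzymes after lanosterol, 6 fell and 2 rose in lung (median -0.43), and of 7 genes of the SREBP machinery 0 passed limma (median 0.17, with 1 at an unadjusted p under 0.05, beside 48.8% of all genes).

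**Figure D4:**
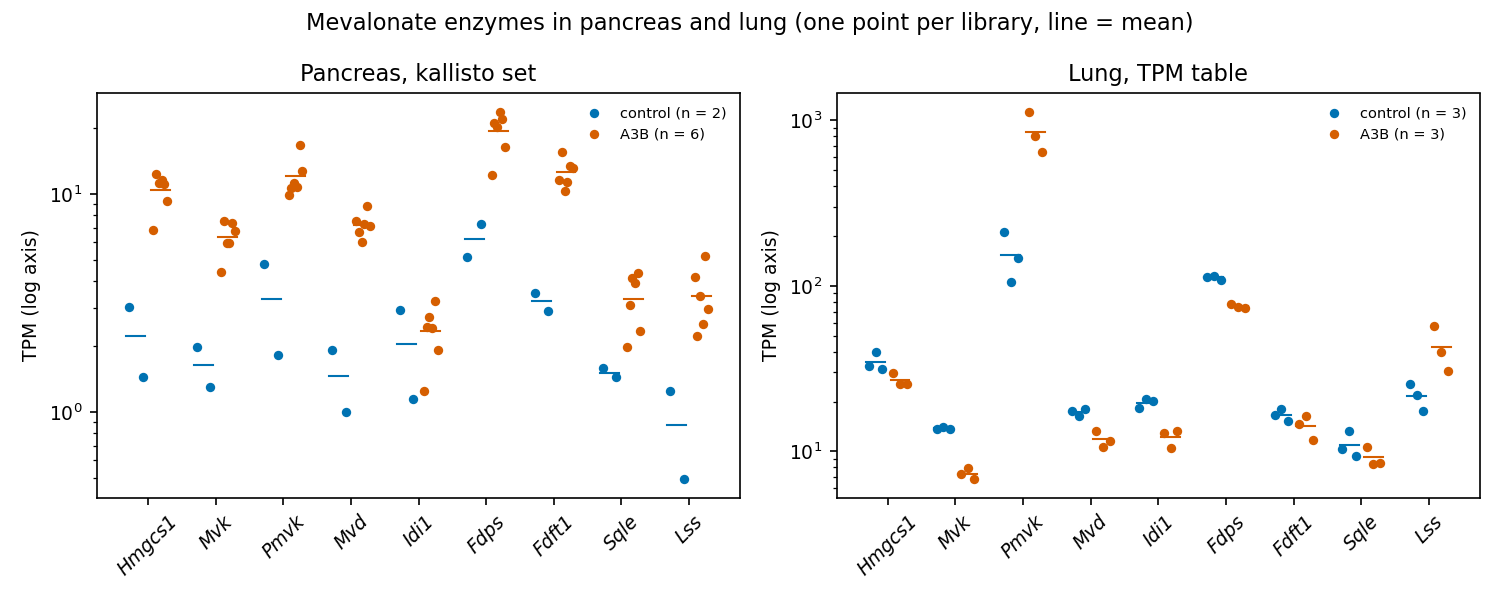
Level of each mevalonate enzyme in pancreas (kallisto set) and lung (TPM table) in TPM on a log axis, one point per library and a line at each group's mean. A3B pancreases lie higher on this scale for most genes, a direction that TMM scaling does not keep, and in lung Pmvk lies at 641 to 1126 TPM in A3B mice and 105 to 211 TPM in controls while Mvk, Mvd, Idi1 and Fdps lie lower.

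The difference between tissues was tested directly as an interaction of tissue and A3B. Against liver, the A3B effect in lung was higher for 7 of 9 genes in the TPM table, where 1.94% of all genes were called higher, with a median difference of 2.03 on the log2 scale beside a median gene of -0.39. Pmvk differed most (5.22 ± 0.67 SE, limma adjusted p = 0.00344), then Hmgcs1 (2.42 ± 0.45 SE, 0.0111), Mvd (2.26 ± 0.42 SE, 0.0111), Sqle (2.08 ± 0.52 SE, 0.0311), Fdps (2.03 ± 0.41 SE, 0.0145), Idi1 (1.80 ± 0.50 SE, 0.0435) and Mvk (1.34 ± 0.30 SE, 0.0198). Fdft1 (1.72, adjusted p = 0.0996) and Lss (1.13, adjusted p = 0.245) did not pass. With the mouse as a random block, chosen after seeing the data because mice 70 and 91 gave both organs, 6 of 9 were called (limma). Idi1 was not called there (1.45, adjusted p = 0.0535), nor without a filter on low values (0.0548) or on log2(TPM + 0.1) (1.88, 0.0536). The count fell to 4 without control lung 87 or 91 or A3B lung 69 or 70. Days on dox differed between livers 23 and 28 and the A3B lungs, and the part of that in the difference was not tested. Related lists also differed by limma. Of acetyl-CoA supply and fatty acid synthesis 3 of 8 were called higher (median 1.63), and of sterol enzymes after lanosterol 4 of 10 (1.505). The SREBP machinery gave 2 of 7 (0.75) and the isoprenoid branches 0 of 9 tested (-0.33).

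Against liver, the A3B effect in pancreas was higher for 3 of 9 genes by edgeR with TMM scaling, where 6.87% of all genes were called higher: Pmvk (2.80 ± 0.42 SE, adjusted p = 0.00184), Mvd (2.44 ± 0.73 SE, 0.0401) and Mvk (1.82 ± 0.54 SE, 0.0405). The median difference was 1.82 beside a median gene of 0.03. With the mouse as a block over the 7 mice that gave both organs, 7 of 9 were called, all but Sqle and Lss, where 5.47% of all genes were called higher, with a median of 2.83. That fit leaves out liver 48 and pancreas 53, which have no partner, and without liver 48 alone 7 were called too. Leaving out 1 library at a time otherwise gave 1 to 3 calls, Pmvk passing in each. Scaling by totals gave 8 calls, beside 39.4% of all genes, and limma on TPM gave 9, beside 56.7%. Related lists also differed in the edgeR fit with TMM scaling. Of acetyl-CoA supply and fatty acid synthesis 5 of 8 were called higher (median 2.46), and of sterol enzymes after lanosterol 3 of 10 (1.89). The SREBP machinery gave 3 of 7 (1.17) and the isoprenoid branches 0 of 10 (-0.04).

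Among controls, the pathway stood highest in liver. The 9 genes summed in the TPM table to 402 TPM on average in control lungs, 28.5% of the 1410 TPM in control livers, and in the kallisto set to 22.5 TPM in control pancreases, 3.52% of the 640 TPM in control livers. The pancreas value stands beside the 59.5% to 62.2% of counts that the 10 most abundant genes held there. In control livers of the TPM table Fdps (550 TPM), Pmvk (351 TPM) and Hmgcs1 (170 TPM) followed each other without overlap between neighbours, and the genes below them mostly overlapped. In A3B livers of the kallisto set every neighbour in the order overlapped, with Fdps at the top and Mvd at the bottom.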

How the data were processed

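RNA was sequenced from 28 mouse libraries (TruSeq stranded RNA). For 16 liver and pancreas libraries the authors deposited kallisto estimated counts and TPM per transcript on mm10. For 12 liver and lung libraries they deposited a table of TPM per gene, built with GenomicAlignments and GenomicFeatures from deduplicated alignments. Transcripts were summed to genes through GENCODE M21 (97.7% of 119414 matched, unmatched transcripts holding 0.23% to 1.47% of counts). Rounded estimated counts were tested with edgeR 4.0.16 (TMM, filterByExpr, robust quasi-likelihood), and the table with limma 3.58.1 (trend, robust) on log2(TPM + 1), keeping genes that averaged 1 TPM or more, so that fold changes of low genes are understated there. P-values are two-sided and adjusted by Benjamini-Hochberg over all genes tested, with a threshold of 0.05. R was 4.3.3. Tests were tried on simulated data. The sets were never tested together.

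The 9 genes, the context lists and the rules were chosen with earlier results of these data known. All 9 genes are named in each comparison, and up to 4 genes of smallest p in each context list. The block used mice that gave both organs, a pairing taken from the labels, and in the TPM table entered at random over all libraries (limma, estimated correlation 0.543). In the kallisto set, correlations of a mouse's deviations between its organs ran from 0.00 to 0.25. Alternatives were DESeq2 1.42.0, other scalings, pseudocounts and filters, single transcripts, Y-linked expression as a covariate (3 of 6 A3B and 1 of 2 control livers of the kallisto set expressed Y-linked genes), labelled genotypes and leaving out each library. The deposited files were read as they stand, 4 rows of repeated names in the table were dropped, and 6 of the genes overlap another annotated gene. Whether counting used strand is not given in the sources used here.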

Additional observations from a re-analysis of the deposited data

Results flagged for a closer look

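Within the 6 A3B livers of the kallisto set, liver 48 lay far above the others for 5 genes. Its gap to the next liver, as a share of the group's range, was 0.745 for Hmgcs1, 0.711 for Mvd, 0.790 for Idi1, 0.672 for Fdps and 0.755 for Fdft1, above the limit of 0.625 that Dixon's test sets for 6 samples. For Lss the highest liver was that of mouse 44, with a gap of 0.740. Chance alone marks about 1 in 20 groups, and 18 groups were checked. No pancreas group was marked.

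The A3B effect differed between tissues by the interaction test. In pancreas minus liver (edgeR) it was 1.82 for Mvk, 2.80 for Pmvk and 2.44 for Mvd on the log2 scale. In lung minus liver (limma) it was 2.42 for Hmgcs1, 1.34 for Mvk, 5.22 for Pmvk, 2.26 for Mvd, 1.80 for Idi1, 2.03 for Fdps and 2.08 for Sqle. Pmvk was called lower in A3B livers and higher in A3B lungs of the same table, mouse 70 contributing to both. Lss had a liver estimate of -0.21, which was not called, and was called higher in lung at 0.92.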

How the results depend on the processing

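The lower liver level kept its direction for Hmgcs1, Mvk, Pmvk, Mvd, Idi1, Fdps, Fdft1 and Sqle under each alternative run in both sets, and the calls did not. In the kallisto livers, the number of genes called was 1 with the most abundant transcript alone, where Mvk and Fdps lost their calls, and 1 to 8 leaving out libraries. In the TPM table it was 0 without a filter on low values, where more genes were tested, and 0 to 8 leaving out libraries, with Lss turning to 0.23 without control 11 and 0.16 without A3B liver 28 (range -0.62 to 0.23). In lung, Lss lost its call without that filter, as did Lss in pancreas, and calls ran from 4 to 6, and for lung minus liver from 4 to 8, leaving out libraries.

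In pancreas, scaling by library totals called 8 genes and turned the signs to positive: median 1.90, Mvk 2.13, Pmvk 1.90, Idi1 0.23, Fdps 1.67, Fdft1 1.92, Sqle 1.10 and Lss 1.51. Limma on log2(TPM + 1) called 8, with a median of 1.48, Mvk 1.47, Pmvk 1.67, Idi1 0.17, Fdps 1.48, Fdft1 1.68, Sqle 0.74 and Lss 1.23. The most abundant transcript alone called 1, with a median of 0.11, Mvk 0.11, Pmvk 0.25 and Lss 0.95. Protein-coding transcripts alone, an alternative chosen after seeing the data, gave Hmgcs1 -0.094, Mvd -0.082 and Lss 0.36. DESeq2 gave -0.009 for Hmgcs1. Grouping by labelled genotype called 0 genes by edgeR, with Hmgcs1 -0.47, Pmvk 0.11, Mvd -0.14, Idi1 0.71, Sqle 0.28 and Lss 0.32. Leaving out libraries gave 1 to 4 calls and turned signs within these ranges: median -0.72 to 0.088, Hmgcs1 -0.051 to 0.13, Mvk -0.64 to 0.36, Mvd -0.03 to 0.24, Fdps -1.36 to 0.23 and Fdft1 -0.92 to 0.24. The cause was not tested.

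For pancreas minus liver, scaling by totals called 8 genes, limma 9, and the replicate block over 7 mice 7. Leaving out libraries gave 1 to 7, with Lss from -0.42 to 0.66. For lung minus liver, a random replicate block for the mouse, chosen after seeing the data, called 6 genes with a median of 1.78 and lost Idi1. The other comparisons hold 1 library per mouse.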
